A study of Rattus norvegicus with 24 samples.

Results

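The spontaneously hypertensive rat (SHR) was compared with the Sprague-Dawley rat (SD) across 6 brain regions, on 12 of the 24 arrays of the study. SHR is an inbred strain bred for high blood pressure and widely used as a genetic model of attention deficit hyperactivity disorder. SD is an outbred stock. The 12 arrays were chosen by strain label, 6 of SHR and 6 of SD, and each SHR array was set against the SD array of the same region: the dorsal striatum, hippocampus, prefrontal cortex, substantia nigra with ventral tegmental area (substantia nigra/VTA), cerebellar vermis and ventral striatum. Wistar-Kyoto (WKY) rats, the normotensive inbred strain usually paired with SHR, gave a further 6 arrays, and the last 6 came from SD-PCB rats, SD animals that had been exposed to polychlorinated biphenyls. All animals were males of postnatal day 55 to 65: 8 SHR, 8 WKY, 4 SD-PCB and 8 SD rats, 28 in all. The labels used here do not give the dose or time of the PCB exposure. There was 1 array per group and region, and the labels do not say how the RNA of the rats of a group was combined. The p-values below therefore rest on the spread over 6 regions of the same groups of rats, not on the spread between animals. That spread was estimated from all 24 arrays, those of WKY and SD-PCB included. It is not the spread of the 6 SHR minus SD differences alone, which was wider for genes with uneven regions such as Cbs. Strain, housing and the handling of each strain's tissue cannot be told apart in this design.

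An inbred strain carries fixed alleles throughout its genome, so that 2 strains differ at many genes at once, in sequence and in transcript level. Whether sequence differences between the strains lie under the array's probes was not checked. SHR and WKY descend from the same Wistar colony, whereas SD has another origin, so a transcript that separates SHR from SD may separate WKY from SD as well. By its title the study compared genetic and environmental models of attention deficit. Each SHR minus SD difference was therefore read beside the WKY minus SD difference of the same gene. Both differences use the same 6 SD arrays.

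Values were MAS5 signals, the Affymetrix summary of a probe set's brightness on a linear scale, and every array had been scaled to about the same trimmed mean, between 500.1 and 500.2. Differences are of log2(signal + 1), and the added 1 shrinks those of dim genes only slightly. Very low signals went with some of the largest regional differences, such as 6.08 for Pdlim7 in the vermis, where the SD array had a signal of 7.11. Where 3 signals are given for a group, they are the lowest, the median and the highest of its 6 arrays. The arrays of the groups differed in shape. The median signal over probe sets was 131.7 to 178 on SHR arrays and 131 to 184 on SD arrays, against 109 to 153 on WKY and 89.0 to 126 on SD-PCB arrays. The highest signal of an array averaged 22724 ± 2385 in SHR and 37395 ± 6576 in SD (SD over arrays, n = 6 each), and the 18 control probe sets that report transcripts added before hybridisation were lower in SHR by a median log2 difference of -0.76. The 3′ over 5′ log2 ratio of Gapdh, which reflects the length of the labelled RNA, averaged 1.53 ± 0.26 in SHR and 2.04 ± 0.08 in SD. The same ratio was 3.75 ± 0.79 in SHR and 3.86 ± 0.62 in SD for beta-actin. For hexokinase it was 2.25 ± 1.27 and 1.56 ± 1.53, so the 3 controls did not move together. Whether these differences between arrays take part in the results was not tested. Region labels matched their defining genes in both strains. Slc6a3, the dopamine transporter, had a signal of 8411 in SHR and 7789 in SD substantia nigra/VTA and at most 72.8 in SHR and 122 in SD elsewhere. Pcp2, of Purkinje cells, had 13406 in SHR and 9650.3 in SD vermis and at most 93.4 in SHR and 116 in SD elsewhere. Drd1, the D1 dopamine receptor, had 4870 and 3441 in the dorsal and ventral striatum of SHR, and 6099.5 and 4316 in those of SD.

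Differences between SHR and SD were widespread, and the counts for gene groups below are read against these shares. Of 15521 probe sets tested, those at or above the median of mean signal, 5187 (33.4%) passed an adjusted p of 0.05 for SHR minus SD, 2930 (18.9%) of them higher and 2257 (14.5%) lower in SHR. Taken by gene, with the brightest probe set standing for each of 9009 genes, 3218 (35.7%) passed, 2197 (24.4%) higher and 1021 (11.3%) lower. The signals of the 6 SHR and 6 SD arrays did not overlap at all for 487 genes (5.41%). For WKY minus SD, 1525 genes (16.9%) passed, 827 (9.18%) higher and 698 (7.75%) lower in WKY. For SHR minus SD-PCB, 4659 genes (51.7%) passed, 2941 (32.6%) higher and 1718 (19.1%) lower in SHR. For SHR minus WKY, 3034 of the 9009 genes passed, 1861 higher and 1173 lower in SHR. The median log2 difference over all tested genes was 0.13 for SHR minus SD, while WKY minus SD had a median of 0.05.

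The direction of the calls moved with signal level. The tested probe sets were split by mean signal into 4 groups of equal size. Among genes of the dimmest group, 18.8% were higher and 4.98% lower in SHR, and in the third group 33.0% were higher and 7.54% lower. In the brightest group 16.5% were higher and 23.98% lower. Among called probe sets of the brightest group, 36.8% were higher as deposited, 45.2% after quantile normalization and 53.6% with array medians centred, so falls of the brightest transcripts depended on the scaling. With array medians centred, the median difference of all tested probe sets was 0.14 for SHR minus SD (0.05 as deposited) and 0.47 for WKY against SD (0.04 as deposited), and 69.6% of the called probe sets were higher in SHR, against 56.5% as deposited.

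**Figure D1:**
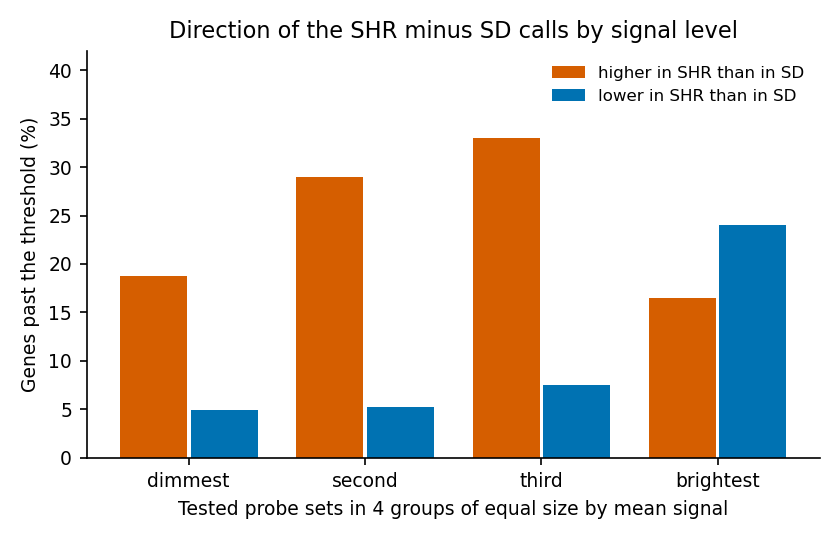
Percent of genes past the threshold for SHR minus SD, higher (orange) and lower (blue) in SHR, in 4 groups of tested probe sets of equal size, from dimmest to brightest. Calls in the first 3 groups are mostly higher in SHR, whereas in the brightest group 23.98% of genes are lower and 16.5% higher.

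The called genes fell into classes by what the same gene did in WKY. A gene was set apart when SHR differed from SD, SHR differed from WKY in the same direction, and WKY did not pass against SD. By this rule 1507 genes were set apart (16.7% of those tested), 1028 (11.4%) higher and 479 (5.32%) lower in SHR, and 1285 of them had 1 sign in all 6 regions, a description only, since the test that chose them runs over the same regional differences. Their median absolute log2 difference was 0.63 against SD, and the median absolute difference of WKY from SD for these genes was 0.14. A gene was shared when WKY also passed against SD in the same direction and SHR did not differ from WKY, which held for 628 genes (6.97%), 384 (4.26%) higher and 244 (2.71%) lower. A further 122 genes (1.35%) were graded: SHR and WKY both passed against SD in the same direction, and SHR differed from WKY in either direction. Another 52 (0.577%) were opposite, with SHR and WKY on different sides of SD. For the other 909 genes (10.1%) these tests did not settle the class. With array medians centred the set-apart count was 1005 probe sets, against 2334 (15% of those tested) as deposited, and the shared count 2516, against 1118 (7.2%).

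Nt5dc1, which encodes a protein of the 5′-nucleotidase domain family, was the largest set-apart fall. It had lowest, median and highest signals of 81.5, 177 and 240.2 on the SHR arrays, against 898, 1169.5 and 1352 on the SD arrays. The groups did not overlap, and the WKY arrays, at 916, 1062 and 1117, lay with SD. The log2 difference was -2.81 ± 0.16 (SE, adjusted p = 6.33e-11) for SHR minus SD, against -0.13 ± 0.16 for WKY over SD (adjusted p = 0.621), and it ran from -3.71 to -2.35 over the 6 regions.

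Elavl1, the ubiquitous RNA-stabilising protein HuR, had lowest, median and highest signals of 930.4, 1266 and 1556 on the SHR arrays, against 2969.8, 6638 and 9747 on the SD arrays. All 6 SHR arrays were below every SD and WKY array. The SHR minus SD difference was -2.30 ± 0.17 (SE, adjusted p = 2.84e-09) and the WKY minus SD difference -0.22 ± 0.17 (adjusted p = 0.398). Of the other 2 tested probe sets of Elavl1, 1 was also lower, at -0.76 ± 0.26 (adjusted p = 0.0284), and 1 did not pass, at -0.71 ± 0.48 (adjusted p = 0.264). Cpeb3, a cytoplasmic polyadenylation element binding protein that controls translation at synapses, had signals of 179, 383 and 485 on the SHR arrays, against 904, 1319 and 1776 on the SD arrays, again with no overlap. Its difference was -1.98 ± 0.21 (SE, adjusted p = 5.21e-07) against SD, while WKY, at 1253, 1748 and 2769.9, stood 0.39 ± 0.21 above SD (adjusted p = 0.205).

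**Figure D2:**
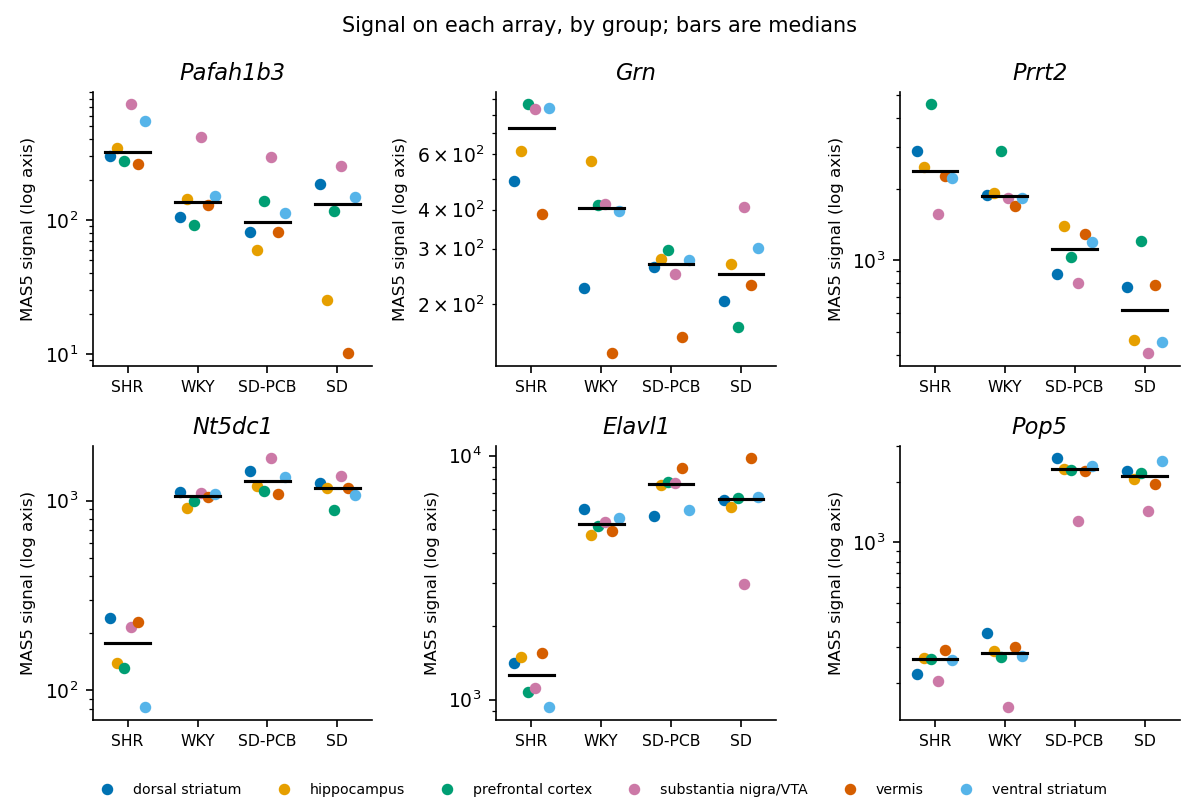
MAS5 signal on each array (log axis) for 6 genes, by group, with points coloured by region and bars at the median. Nt5dc1 and Elavl1 are low only on the SHR arrays among these 4 groups, Pop5 is low on both the SHR and WKY arrays, and Prrt2 is high on both.

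The other set-apart falls were smaller or more uneven. Sppl2a, an intramembrane protease of endosomes and lysosomes, had signals of 165, 287 and 494 on the SHR arrays, against 547, 999 and 1904 on the SD arrays, and fell by 1.89 on the log2 scale (adjusted p = 5.64e-05). Its other 3 tested probe sets were at -0.47 (adjusted p = 0.0253), -0.61 (adjusted p = 0.114, not past the threshold) and -0.69 (adjusted p = 0.00509), and the last was shared with WKY (-0.53). Pnma8b fell by 1.85 (adjusted p = 1.92e-04), and by the brightest probe set neither gene's SHR arrays overlapped those of SD. Rora, a nuclear receptor of cerebellar development and the circadian clock, fell by 2.10 (adjusted p = 4.72e-04), and Ro60, an RNA-binding protein of Y RNAs, by 2.06 (adjusted p = 0.00168). For both, SHR and SD arrays overlapped, and the lowest SHR signals were very dim, 10.5 and 15.2. Over regions Ro60 ran from -3.98 to -0.34. Tmem200a had a difference of -1.72, which was -1.06 without the dorsal striatum (adjusted p = 0.00462). For 2 genes another probe set went the other way. Atxn7, a subunit of the SAGA coactivator complex, was at -1.96 ± 0.30 (SE, adjusted p = 4.07e-05) by its brightest probe set and 0.48 by its next (adjusted p = 0.028). Pet100, an assembly factor of cytochrome c oxidase, was at -1.77 ± 0.17 (SE, adjusted p = 2.51e-07) by its brightest and 0.59 by its next (adjusted p = 0.0205). By these next probe sets both genes were set-apart rises.

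The 10 set-apart rises named here were chosen by size among genes with 1 sign in all 6 regions, and were of dim to middling signal. Pafah1b3, a catalytic subunit of brain platelet-activating factor acetylhydrolase, had lowest, median and highest signals of 263, 324 and 727 on the SHR arrays, against 10.1, 132 and 253 on the SD arrays. No SD array reached the lowest SHR array, and the vermis and hippocampus of SD, at 10.1 and 25.2, were far below the other SD regions. Its difference was 2.27 ± 0.42 (SE, adjusted p = 3.10e-04), and that of WKY minus SD 0.93 ± 0.42 (adjusted p = 0.13).

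Ift140, a subunit of the transport complex of cilia, had its largest difference in the hippocampus. It had signals of 516, 794 and 1288 in SHR, 365, 395 and 513 in WKY and 179, 294 and 509.7 in SD, and SHR and SD did not overlap. The SHR minus SD difference was 1.49 ± 0.20 (SE, adjusted p = 1.29e-05). Idua, the lysosomal enzyme alpha-L-iduronidase, had signals of 615, 663 and 754 on the SHR arrays, against 166, 179 and 459 on the SD arrays, and rose by 1.55 ± 0.22 (adjusted p = 2.35e-05). Hgs, which sorts ubiquitinated receptors at endosomes, rose by 1.53 ± 0.25 (adjusted p = 7.46e-05), with no overlap between 542, 659.7 and 913 in SHR and 93, 231 and 485 in SD.

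The laminin subunit gene Lamb2 (log2 difference 1.86), the slow skeletal troponin gene Tnnt1 (1.88), Btbd2 (1.65), Phldb1 (1.55) and Znhit2 (1.49) also rose, with adjusted p from 1.41e-04 to 6.59e-04. Cbs, cystathionine beta-synthase, which makes cystathionine from homocysteine, was at 1.62 ± 0.39 (SE, adjusted p = 0.00285). Its value was 0.98 without the vermis (adjusted p = 3.53e-04), where the SHR array had a signal of 275 and the SD array one of 8.81. The vermis gave the largest difference for 7 of these 10 rises, Pafah1b3, Lamb2, Btbd2, Cbs, Idua, Phldb1 and Hgs, and 128 tested probe sets were under a signal of 20 on the SD vermis array, against 70 on the SHR vermis array and 11 to 41 on the other SD arrays.

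**Figure D3:**
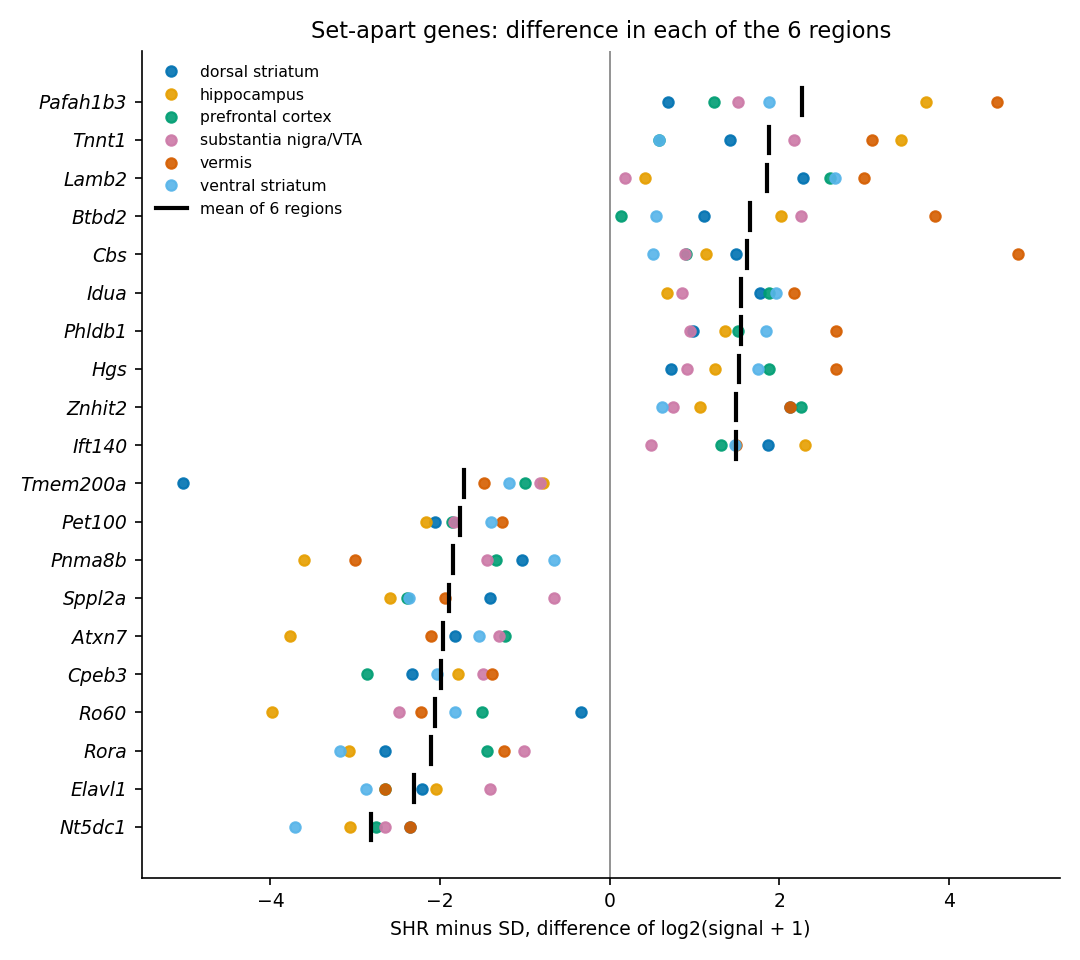
SHR minus SD difference of log2(signal + 1) in each region (points) and the mean of 6 regions (black bars) for the 10 largest set-apart rises and falls with 1 sign in every region. Nt5dc1 spans -3.71 to -2.35, whereas Cbs in the vermis and Tmem200a in the dorsal striatum lie far from their other regions.

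RNA-binding proteins of neurons regulate the splicing, stability and local translation of transcripts. Of 19 tested members of this list, 13 were lower in SHR than in SD and none was higher, against 11.3% and 24.4% of all tested genes. The list was drawn up with earlier results of these data known and is not independent of them. Its median log2 difference was -0.47, and the median was below 0 in 6 of 6 regions, from -0.58 to -0.26. In WKY 1 member was higher and 1 lower than in SD, with a median of 0.02. The summed signal of the list was 34437 to 47518 on SHR arrays, 54085 to 63781 on WKY arrays and 46056 to 64696 on SD arrays, so that no WKY array was below any SHR array.

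The falls covered several families, and 10 of the 13 were set apart. Besides Elavl1, Cpeb3 and Ro60, the splicing regulators Celf1 (-0.64 ± 0.11, adjusted p = 1.55e-04) and Celf4 (-0.54 ± 0.17) were lower, as were Elavl2 (-0.52 ± 0.12), the translational repressor Pum2 (-0.44 ± 0.11), Fxr1, a relative of the fragile X protein (-0.47 ± 0.14), Cpeb4 (-0.47 ± 0.14) and G3bp2, of stress granules (-0.33 ± 0.10). Rbfox1, a neuronal splicing factor, was at -0.52 ± 0.10 (SE, adjusted p = 6.10e-04), but its next probe set was at -0.21 (adjusted p = 0.206), and that of Celf1 was at 0.08 (adjusted p = 0.634). Fmr1 itself, the fragile X gene, was at -0.22 ± 0.14 (SE, adjusted p = 0.23) and did not pass. In the comparison of SHR with SD-PCB, which uses no SD array, 12 of the 19 were lower and 2 higher, against 19.1% and 32.6% of all tested genes. Of the 19, 10 lie in the brightest group, where 23.98% of genes were lower. Quantile normalization left 12 lower, and with array medians centred 9.

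Lysosomes degrade proteins, lipids and glycans, and their genes are in part under the transcription factor TFEB. Of 19 tested lysosomal genes, 10 were higher in SHR and none was lower, against 24.4% and 11.3% of all tested genes. This list too was drawn up with earlier results of these data known. The median log2 difference was 0.47, and the median was above 0 in 6 of 6 regions, from 0.26 to 0.61. In WKY none was higher than in SD and 2 were lower, with a median of -0.12. Summed signals were 32688 to 44363 on SHR arrays, 23971 to 32587 on WKY arrays and 26544 to 37982 on SD arrays. No WKY array reached the lowest SHR array, while the SD and SHR ranges overlapped.

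Grn, the progranulin precursor, which is needed for lysosomal function, had the largest rise of the 19 genes of this list. It had signals of 388, 727 and 866 in SHR, 139, 406 and 573 in WKY and 169, 249 and 408 in SD, and the difference was 1.35 ± 0.21 (SE, adjusted p = 5.29e-05) for SHR minus SD, against 0.37 ± 0.21 for WKY over SD (adjusted p = 0.235). Mcoln1, the lysosomal calcium channel mucolipin 1, had signals of 592, 887 and 996 on the SHR arrays, against 359, 388 and 612 on the SD arrays, a difference of 0.95 ± 0.16 (SE, adjusted p = 1.20e-04). Hexa, a subunit of beta-hexosaminidase, rose by 0.76 ± 0.12 (adjusted p = 7.05e-05), with signals of 1056, 1416 and 1722 on the SHR arrays, against 612, 826 and 1089 on the SD arrays. The SHR median lay above the highest SD array for Grn, Mcoln1 and Hexa.

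The other risers were the proteases Ctsa (0.66 ± 0.15), Ctsd (0.63 ± 0.19) and Ctsz (0.96 ± 0.23), Atp6v0d1 of the proton pump (0.47 ± 0.12), Man2b1 (0.71 ± 0.19), the sphingolipid activator precursor Psap (0.36 ± 0.11) and Gla, alpha-galactosidase (0.73 ± 0.16). The next probe set of Gla was at 0.11. Ctsb (0.15 ± 0.11, adjusted p = 0.316), Lamp1 (0.14 ± 0.10, adjusted p = 0.314) and Tpp1 (-0.12 ± 0.12, adjusted p = 0.441) were among the 9 that did not pass. Against SD-PCB, 13 of the 19 were higher and 2 lower in SHR, where the shares of all tested genes were 32.6% and 19.1%. The count was 9 to 11 when any 1 region was left out. Microglia are rich in lysosomes: of 10 tested microglial markers 2 were higher in SHR and none lower, with summed signals of 4037 to 11308 in SHR and 3292 to 13708 in SD. Their median log2 difference was 0.37, above 0 in 6 of 6 regions. Of the 10, 4 were higher in SHR than in WKY, against 1861 of all 9009 tested genes, and 6 higher than in SD-PCB, against 32.6%. The markers that passed against SD were Trem2 (1.08 ± 0.30, adjusted p = 0.00899), which was 0.83 without the dorsal striatum (adjusted p = 0.0669), and P2ry12 (0.58 ± 0.11, adjusted p = 4.12e-04). In whole tissue fewer cells of a type and less RNA per cell cannot be told apart, and the part of microglia in the lysosomal result was not tested.

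**Figure D4:**
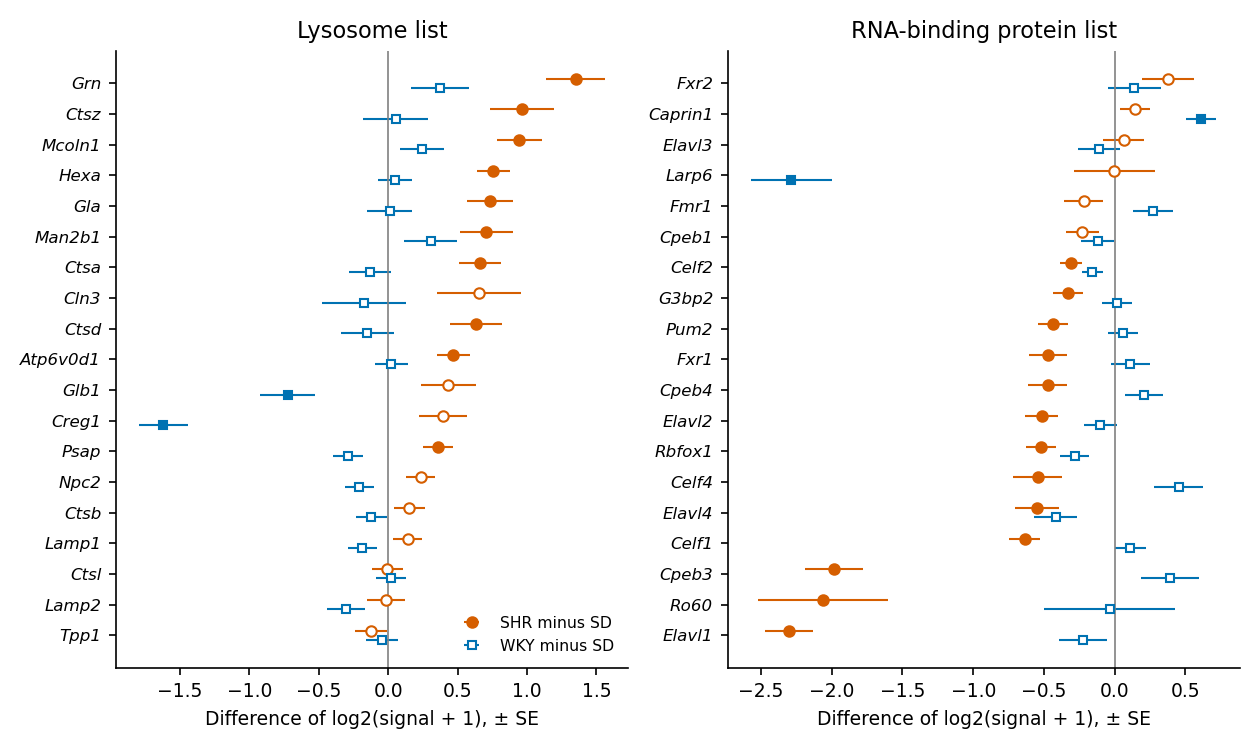
Difference of log2(signal + 1) with its standard error for every tested gene of the lysosome list and of the RNA-binding protein list, for SHR minus SD (orange circles) and WKY minus SD (blue squares), filled where the adjusted p was under 0.05. In SHR 10 lysosomal genes are higher and 13 RNA-binding genes lower, while most WKY values lie near 0, with Creg1, Glb1 and Larp6 as lower exceptions.

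Promoters of 16 of the 19 tested lysosomal genes were found in RefSeq's rat annotation (GRCr8), each from 250 bases before to 50 after the start of the gene. The letters TCACGTG, the core of the element that TFEB binds in lysosomal genes, were searched on both strands, with overlapping matches merged into 1 site. They occurred in 6 of the 16 (37.5%), in 5.69% of 7555 tested genes with a promoter and in 3.2% of all 33469 promoters. Those that rose and those that did not pass held the motif at the same share, 3 of 8 each (37.5%). A match is a description of the sequence, not a binding site. The promoters of Mcoln1, Ctsd and Atp6v0d1, which rose and hold the motif, and of Lamp1, which has 5 sites and did not pass, are shown in 5′ to 3′ direction of the gene, with the motif in capitals.
Mcoln1 promoter, chr12:6358008-6358307, plus strand: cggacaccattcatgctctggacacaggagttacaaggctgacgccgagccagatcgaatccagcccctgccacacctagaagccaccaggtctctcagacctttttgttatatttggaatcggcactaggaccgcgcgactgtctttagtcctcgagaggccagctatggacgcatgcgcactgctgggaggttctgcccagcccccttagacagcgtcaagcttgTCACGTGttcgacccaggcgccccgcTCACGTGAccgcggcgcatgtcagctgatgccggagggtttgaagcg
Ctsd promoter, chr1:206968772-206969071, minus strand: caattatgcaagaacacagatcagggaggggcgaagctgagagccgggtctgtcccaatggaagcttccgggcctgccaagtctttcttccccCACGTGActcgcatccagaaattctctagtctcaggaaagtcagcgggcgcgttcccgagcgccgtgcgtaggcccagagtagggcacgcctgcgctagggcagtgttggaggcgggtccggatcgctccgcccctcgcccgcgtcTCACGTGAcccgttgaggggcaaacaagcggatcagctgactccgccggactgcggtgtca
Atp6v0d1 promoter, chr19:50357199-50357498, minus strand: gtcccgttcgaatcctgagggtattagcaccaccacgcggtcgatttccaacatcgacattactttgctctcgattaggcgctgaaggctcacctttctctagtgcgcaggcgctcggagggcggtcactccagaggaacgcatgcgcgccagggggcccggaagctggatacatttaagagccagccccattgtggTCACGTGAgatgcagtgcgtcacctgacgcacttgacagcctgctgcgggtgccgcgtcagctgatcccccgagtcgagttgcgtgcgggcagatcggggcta
Lamp1 promoter, chr16:83075014-83075313, minus strand: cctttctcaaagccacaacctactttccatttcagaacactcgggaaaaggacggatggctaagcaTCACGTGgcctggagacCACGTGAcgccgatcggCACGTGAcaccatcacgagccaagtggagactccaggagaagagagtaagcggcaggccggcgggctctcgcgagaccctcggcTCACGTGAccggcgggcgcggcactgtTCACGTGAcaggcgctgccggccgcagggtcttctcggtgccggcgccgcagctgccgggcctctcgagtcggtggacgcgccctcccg

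Epigenetic regulation was, beside attention deficit, a subject named in the study's design. Histone acetyltransferases and coactivators open chromatin by acetylating histones, and 5 of 13 tested were lower and 1 higher in SHR, with a median of -0.34. The set-apart falls were Atxn7 (given above), Crebbp (-0.34 ± 0.11, adjusted p = 0.0258), Ncoa1 (-0.35 ± 0.08, adjusted p = 0.00132) and Ep300 (-0.57 ± 0.16, adjusted p = 0.00867), the Ep300 value being -0.38 without the hippocampus (adjusted p = 0.0761). The 1 rise was Kat2a, the acetyltransferase of SAGA, at 0.85 ± 0.26 (SE, adjusted p = 0.0157), which did not pass without the dorsal striatum, hippocampus or ventral striatum (0.74 to 0.79, adjusted p = 0.0514 to 0.0797). In WKY none of the 13 was lower than in SD. Without the hippocampus 2 of the 13 were lower, and without the dorsal striatum 3. With array medians centred 2 were lower.

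Chromatin remodellers move nucleosomes with ATP. Of 18 tested, 5 were higher and 6 lower in SHR, and 9 of these 11 were set apart. Hmgb1, an abundant DNA-bending protein, was lower at -1.10. Smarcd3 (0.83 ± 0.15, adjusted p = 2.06e-04), Smarca4, the ATPase BRG1 (0.79 ± 0.17), Smarcb1 (0.64 ± 0.13) and Chd3 (0.82 ± 0.18) were higher. Smarca2, the alternative ATPase BRM, was lower at -0.53 ± 0.09 (SE, adjusted p = 1.21e-04), against -0.22 after quantile normalization (adjusted p = 0.0702). Arid1b was lower in SHR (-0.80 ± 0.09, adjusted p = 2.63e-06) and in WKY (-0.49 ± 0.09) than in SD, although its next probe set was at 0.01.

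Among histone deacetylases and sirtuins, which remove acetyl groups, 5 of 12 were higher and 1 lower, with a median of 0.43. Sirt2, the deacetylase of myelin, had signals of 671, 1232 and 1805 on the SHR arrays, against 346, 746 and 1298 on the SD arrays, and a difference of 0.69 ± 0.15 (SE, adjusted p = 0.0012), and it was set apart. Hdac11 was at 0.57 ± 0.13 (SE, adjusted p = 0.00173). Sirt6 was at 1.03 ± 0.21 (SE, adjusted p = 6.08e-04), and against SD-PCB at 0.22 (adjusted p = 0.38). Of 19 genes of histone methylation 5 were higher, near the 24.4% of all tested genes, and none was lower. Among the 5 were Ehmt2, the G9a methyltransferase (0.92 ± 0.18, adjusted p = 4.52e-04), and Carm1 (0.78 ± 0.14, adjusted p = 1.96e-04), both set apart. Of 10 genes of DNA methylation and methyl binding 3 were higher and 1 lower, and none was set apart. Mbd3, of the NuRD complex, was at 0.76 ± 0.16 (SE, adjusted p = 0.00132) in SHR and 0.49 ± 0.16 in WKY.

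Dopamine genes are central to attention deficit models. Of 15 tested genes of dopamine synthesis, reception and signalling, 4 were higher in SHR, near the 24.4% of all tested genes, and 1 was lower. Caly, calcyon, which works in endocytosis and was first linked to the D1 receptor, had signals of 1254, 2090.0 and 2602 in SHR, 773, 1183 and 1381 in WKY and 487, 983 and 1358 in SD. The SHR minus SD difference was 1.11 ± 0.13 (SE, adjusted p = 3.00e-06) and the gene was set apart. Ppp1r1b, DARPP-32, the phosphatase regulator of medium spiny neurons, had signals of 612, 1259 and 10192 on the SHR arrays, against 406, 771 and 8308 on the SD arrays, and rose by 0.53 ± 0.14 (adjusted p = 0.00552), with a regional range of 0.29 to 0.81. Its 2 smallest differences were in the dorsal and ventral striatum, 0.29 in each, where it was brightest. Ppp1r1a, a phosphatase inhibitor, rose by 0.66 ± 0.14 (adjusted p = 8.59e-04). The receptors did not pass: Drd1 was at -0.43 ± 0.25 (SE, adjusted p = 0.19) and Drd2 at 0.68 ± 0.39 (SE, adjusted p = 0.183). In the striatum Drd2 was lower in SHR, with 1160 against 1313 in the dorsal and 625 against 941 in the ventral part. Its positive mean came from the other regions, where signals were at most 227 in SHR and 91.1 in SD. Slc18a2, the vesicular monoamine transporter, was at -0.48 ± 0.17 (SE, adjusted p = 0.0345), and its adjusted p was 0.071 to 0.12 when the dorsal striatum, hippocampus, vermis or ventral striatum was left out. In the substantia nigra/VTA, where it was brightest, it differed by 0.03, with signals of 6692 in SHR and 6566 in SD. The other regions ran from -0.77 to -0.15. None of 4 tested noradrenaline and serotonin genes passed, and Adra2a, the alpha-2A receptor, was at -0.44 ± 0.20 (SE, adjusted p = 0.0984). Of 10 striatal neuron markers 2 were higher, Ppp1r1b and Adcy5, and none lower. Adcy5 was at 1.09 ± 0.40 (SE, adjusted p = 0.0388). It was 0.43 without the vermis (adjusted p = 0.142), where the SD array had a signal of 8.60. Of 5 markers of midbrain dopamine neurons 1 was lower, Slc18a2.

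Glutamate carries most fast excitation. Of 20 tested receptors and transporters, 8 were lower and 3 higher in SHR. Gria3, an AMPA receptor subunit, had signals of 1888, 4320.1 and 7842 on the SHR arrays, against 3050.5, 7329.9 and 10250.0 on the SD arrays, a difference of -0.64 ± 0.11 (adjusted p = 1.22e-04) and was set apart, although its next probe set was at -0.19. Grm3, a presynaptic and glial metabotropic receptor, was at -0.65 ± 0.11 (SE, adjusted p = 1.14e-04) and also set apart. Grin1, the obligatory NMDA receptor subunit, was higher, with signals of 835, 1443 and 2064 on the SHR arrays, against 354, 517 and 831 on the SD arrays, and no overlap. Its difference was 1.26 ± 0.14 (SE, adjusted p = 1.05e-06), with WKY at 0.64 ± 0.14 (adjusted p = 0.00252), and its next probe set was at 0.17. Against SD-PCB 2 of the 20 were lower in SHR, and Grm3 was at -0.18 (adjusted p = 0.163).

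Of 12 GABA genes 3 were higher and 2 lower, near the shares of all tested genes, and 7 did not pass. Gabra2, a GABA-A receptor subunit, had signals of 375, 1414 and 2557 in SHR, 454, 2371 and 2847 in WKY and 695, 4003 and 5228 in SD. It was at -1.36 ± 0.19 (SE, adjusted p = 1.89e-05) in SHR and -0.76 ± 0.19 in WKY. Slc32a1, the vesicular GABA transporter, was set apart at 1.0 ± 0.22 (SE, adjusted p = 0.00131). Gabrd, the extrasynaptic delta subunit, was at 0.86 ± 0.24 (SE, adjusted p = 0.00938) and 0.49 without the substantia nigra/VTA (adjusted p = 0.041), and its next probe set was at -0.11.

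Of 13 genes of vesicle release 3 were higher and 4 lower. Syn1, synapsin I, rose by 0.75 ± 0.14 (adjusted p = 3.75e-04), and its next probe set was at 0.10. Snap25, the SNARE protein of synaptic vesicle fusion and a gene much studied in attention deficit, had signals of 12291, 15922 and 23828 in SHR, 13376, 15002 and 27839 in WKY and 18605, 22086 and 34032 in SD. The differences were -0.53 ± 0.07 (SE, adjusted p = 9.90e-06) for SHR minus SD, against -0.50 ± 0.07 for WKY over SD (adjusted p = 3.15e-05), so this fall was shared, and after quantile normalization the first was -0.02.

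Calcium genes were lower in 7 of 16 and higher in 1, with a median of -0.22. Cacna2d1, an auxiliary channel subunit (-0.83 ± 0.20, adjusted p = 0.00297), and Slc8a1, the sodium-calcium exchanger (-0.48 ± 0.13, adjusted p = 0.00803), were set apart. Itpr1, the inositol trisphosphate receptor, was at -0.64 ± 0.09 (SE, adjusted p = 2.27e-05) in SHR and -0.42 ± 0.09 in WKY. Ryr1, a ryanodine receptor, was higher by 1.19 ± 0.24 (adjusted p = 7.51e-04) in SHR and by 1.18 ± 0.24 in WKY. After quantile normalization 3 of the 16 were lower, and against SD-PCB 4. Of 17 potassium channel genes 1 was higher and 3 lower, including Kcnd2, which carries the dendritic A-type current (-0.44 ± 0.09, adjusted p = 9.58e-04, set apart).

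Of 6 neurotrophins and receptors 1 was higher, Ntrk2, the BDNF receptor, at 0.57 ± 0.17 (SE, adjusted p = 0.0118). Ntrk2 was 0.42 without the dorsal striatum (adjusted p = 0.0682). Its next probe set passed in the other direction, at -0.39 (adjusted p = 0.0109), and was shared with WKY. Npy, neuropeptide Y, was the only one of 14 neuropeptide genes that passed. It had signals of 532, 1431 and 2160.0 in SHR, 189.7, 1080.3 and 2009 in WKY and 171, 726 and 1342 in SD, with 1.03 ± 0.20 (SE, adjusted p = 4.71e-04) for SHR minus SD, against 0.25 ± 0.20 for WKY over SD (adjusted p = 0.421).

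Oxidative phosphorylation genes encode the respiratory chain. Of 28 tested, 9 were higher and 2 lower in SHR, and the median was 0.20. Uqcrc1 of complex III (0.61 ± 0.13, adjusted p = 0.0012) and Atp5po of the ATP synthase (0.64 ± 0.14, adjusted p = 0.00116) were set apart. Ndufv1 had signals of 1926, 2415 and 2643 on the SHR arrays, against 853, 1160.4 and 1559 on the SD arrays. Ndufs7 had signals of 1623, 2448 and 3557 on the SHR arrays, against 718, 1044 and 1869 on the SD arrays. Both are complex I subunits and were graded, at 0.98 ± 0.14 (SE, adjusted p = 2.27e-05) and 1.11 ± 0.14 (SE, adjusted p = 7.71e-06) in SHR and 0.44 ± 0.14 and 0.42 ± 0.14 in WKY. Against SD-PCB 18 of the 28 were higher, and after cyclic loess 15. Of 26 proteasome subunits 6 were higher, near the 24.4% of all tested genes, and 1 was lower. Psmc3 of the regulatory particle rose by 0.80 ± 0.12 (adjusted p = 3.66e-05) with no overlap, at 1378, 1798 and 1981 in SHR and 813, 1014 and 1231 in SD. Psmd1 was higher in SHR (0.69 ± 0.13, adjusted p = 2.78e-04) and lower in WKY (-0.37 ± 0.13). Of 15 cytosolic ribosomal proteins 3 were higher and 3 lower.

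Antioxidant enzymes break down peroxides and superoxide. Of 19 tested, 5 were higher and 2 lower, near the shares of all tested genes. Cat, catalase, had signals of 651, 832 and 1106 in SHR, 1501, 2178 and 5141 in WKY and 2196, 3268 and 5373 in SD. No SHR array reached a WKY or SD array. The differences were -2.04 ± 0.14 (SE, adjusted p = 7.41e-10) for SHR minus SD and -0.41 ± 0.14 (adjusted p = 0.0455) for WKY minus SD, and the SHR minus WKY difference was -1.63 ± 0.14 (SE, adjusted p = 3.07e-08). Gpx4, which reduces lipid peroxides, rose by 0.86 ± 0.17 (adjusted p = 5.56e-04) and Prdx6 by 0.50 ± 0.13 (adjusted p = 0.00498), both set apart. Gpx3, the secreted glutathione peroxidase, was at 1.81 ± 0.34 (SE, adjusted p = 3.37e-04), and its WKY minus SD difference of 0.94 ± 0.34 did not pass (adjusted p = 0.058).

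Glutathione transferases conjugate reactive compounds. Of 13 tested, 3 were higher, near the 24.4% of all tested genes, and none was lower. All 3 were set apart. Gstm1 had signals of 1760.0, 2859 and 3355 on the SHR arrays, against 1162, 1694 and 2019.7 on the SD arrays. Gstm5 had signals of 2527, 3200.3 and 4455 on the SHR arrays, against 1063, 1724 and 3359 on the SD arrays. The differences were 0.71 ± 0.09 (SE, adjusted p = 7.06e-06) and 0.81 ± 0.14 (SE, adjusted p = 1.34e-04), positive in 6 of 6 regions for both. Probe sets of this gene family can share sequence. Gstk1 was at 0.49 ± 0.14 (SE, adjusted p = 0.013) and 0.45 without the ventral striatum (adjusted p = 0.0563).

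Of 9 genes of epoxide and eicosanoid metabolism 3 were higher and none lower. Mgll, monoacylglycerol lipase, which breaks down the endocannabinoid 2-arachidonoylglycerol, had signals of 521, 1570.1 and 1980.2 in SHR, 249, 704 and 862 in WKY and 246, 491 and 1195 in SD and rose by 1.25 ± 0.19 (adjusted p = 3.57e-05), with its next probe set at 0.11. Ephx1, microsomal epoxide hydrolase, was at 0.63 ± 0.19 (SE, adjusted p = 0.0148), with an adjusted p of 0.0728 at 0.55 without the hippocampus and 0.0559 at 0.58 without the ventral striatum. The third was Cyp4f5, at 0.56, which did not pass without the hippocampus, substantia nigra/VTA, vermis or ventral striatum (0.46 to 0.54, adjusted p = 0.102 to 0.132). Ephx2, soluble epoxide hydrolase, was chosen for mention after its values were seen. It had signals of 386, 500.2 and 722 in SHR, 28.4, 54.7 and 74.7 in WKY and 265, 404 and 625 in SD. It did not pass against SD, at 0.30 ± 0.21 (SE, adjusted p = 0.297), while WKY minus SD was -3.04 ± 0.21 (SE, adjusted p = 1.27e-09), so its SHR minus WKY difference of 3.33 ± 0.21 goes with low signals in WKY. Of 20 peroxisomal genes 3 were higher and 2 lower, among them Ech1, of fatty acid oxidation (0.71 ± 0.13, adjusted p = 3.12e-04, set apart).

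Genes of blood pressure control bear on the trait for which SHR was bred. Of 8 tested, 2 were higher and 1 lower, near the shares of all tested genes. Agt, angiotensinogen, had signals of 816, 1637 and 6733 in SHR, 447, 863 and 3399 in WKY and 407, 820.3 and 4937 in SD. It was higher in SHR than in SD in 6 of 6 regions, at 0.92 ± 0.20 (SE, adjusted p = 0.00132), while WKY stood at 0.01 ± 0.20 (adjusted p = 0.989). Npr2, the receptor of C-type natriuretic peptide, had signals of 211, 423 and 474 on the SHR arrays, against 86.7, 169 and 419.6 on the SD arrays, and a difference of 1.06 ± 0.25 (SE, adjusted p = 0.00285), and it was also set apart. Astrocytes are the main source of Agt in brain, and of 11 astrocyte markers 2 were higher and 6 lower in SHR.

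As deposited, 6 of 11 astrocyte markers were lower in SHR. In WKY 9 of the 11 were lower, and 5 of the falls in SHR were shared. Slc1a3, a glutamate transporter, had signals of 9319, 10514 and 15465 in SHR, 7042, 9135 and 21262 in WKY and 12943, 16025 and 25250.0 in SD, with differences of -0.58 ± 0.09 (SE, adjusted p = 4.29e-05) for SHR and -0.71 ± 0.09 for WKY. Aqp4, the water channel of astrocyte endfeet, was at -0.55 ± 0.10 (SE, adjusted p = 1.96e-04) and -0.60 ± 0.10. Gfap, the intermediate filament of astrocytes, was higher, at 0.68 ± 0.17 (SE, adjusted p = 0.00481), and set apart. Summed signals were 75264 to 98887 in SHR, 65917 to 115410.0 in WKY and 96727 to 124010.0 in SD. The falls depended on scaling and on the SD arrays: 2 of the 11 were lower after quantile normalization, where Gja1 was at 0.05 rather than -0.52, and none was lower in SHR than in SD-PCB, while 5 were higher.

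Of 12 oligodendrocyte and myelin genes 2 were higher and 4 lower. Mag, of myelin, was at 0.78 ± 0.27 (SE, adjusted p = 0.0269) and set apart. Cldn11 was at -0.48 ± 0.11 (SE, adjusted p = 0.00201) and -0.06 after quantile normalization, and Mbp, at -0.38 ± 0.11 (SE, adjusted p = 0.012), was at 0.10 after it and at -0.31 without the ventral striatum (adjusted p = 0.0668). Both were also lower in WKY. Of 4 precursor markers 2 were lower, Pdgfra and Bcas1, both shared. Bcas1 did not pass without the dorsal striatum, hippocampus or ventral striatum (adjusted p = 0.0626 to 0.0794).

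Most vessel markers were higher in SHR. Of 8 tested genes of endothelium and pericytes, 5 were higher and 1 lower than in SD, against 24.4% and 11.3% of all tested genes. Of the 8, 7 were higher than in WKY, against 1861 of all 9009 tested genes. Abcb1a, the drug efflux pump of the blood-brain barrier, had signals of 717, 1407 and 1662 in SHR, 233, 514 and 915 in WKY and 169, 582 and 1250.4 in SD. Cldn5, a tight junction protein, had signals of 746, 1116 and 1537 in SHR, 308, 518 and 918 in WKY and 330.2, 601 and 1083 in SD. Both were set apart, at 1.25 ± 0.22 (SE, adjusted p = 1.71e-04) and 0.89 ± 0.18 (SE, adjusted p = 7.00e-04). Pecam1, an endothelial adhesion molecule, went the other way, at -1.27 ± 0.30 (SE, adjusted p = 0.00237) in SHR and -1.35 ± 0.30 in WKY. Against SD-PCB 1 of the 8 was higher and 1 lower, and Abcb1a and Cldn5 stood at 0.04 and 0.06. Summed signals were 8633 to 16754 in SHR, 4589.6 to 12342 in WKY and 6120.3 to 15462 in SD. Hbb, beta-globin of red cells and the 1 tested blood marker, moved with them, and its values are given with the opposite genes. Of 9 meningeal and fibroblast markers 1 was higher in SHR than in SD, Igf2, at 1.01 ± 0.38 (SE, adjusted p = 0.044), which did not pass without the dorsal striatum (0.75, adjusted p = 0.0902), vermis (0.78, adjusted p = 0.126) or ventral striatum (0.94, adjusted p = 0.101). In WKY 8 of the 9 were lower than in SD. Summed meningeal signals were 4116 to 20933 in SHR, 2374 to 7796 in WKY and 4076 to 24255 in SD. None of 3 choroid plexus markers passed. The part of vessel or blood content in these differences was not tested.

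Neuron-type markers had list medians of -0.24 for Purkinje and granule cells, -0.35 for hippocampal neurons and -0.33 for cortical pyramidal neurons. These values take in all 6 regions, not only the region that each neuron type is named for. The median was below 0 in 5, 5 and 4 of the 6 regions for these lists in turn. Of 9 Purkinje and granule cell genes 1 was lower (Itpr1), of 5 hippocampal markers 2 were lower (Neurod6 and Prox1), and of 8 pyramidal markers 2 were lower (Neurod6 and Rorb). Rorb, an orphan nuclear receptor of cortical layer 4 neurons, was set apart at -0.91 ± 0.18 (SE, adjusted p = 4.63e-04), but it stood at -0.10 against SD-PCB. Prox1 was at -0.35 ± 0.11 (SE, adjusted p = 0.0216) and shared with WKY, but did not pass without the hippocampus (adjusted p = 0.0661) or the substantia nigra/VTA (adjusted p = 0.0581). Neurod6 did not pass without the dorsal striatum, substantia nigra/VTA or ventral striatum (adjusted p = 0.0556 to 0.0693). It differed by 0.05 in the hippocampus and -0.21 in the prefrontal cortex, where it was brightest. Its fall came from the dorsal striatum (-2.44), substantia nigra/VTA (-2.47) and ventral striatum (-2.17), where SD signals were 222, 123 and 266.

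Dusp1, the immediate early phosphatase that switches off MAP kinases, was the largest of 4 falls among 12 immediate early genes, none of which was higher. It had signals of 694, 1035 and 1350.2 in SHR, 2396, 3127 and 4834 in WKY and 1741, 2764 and 6864 in SD. No SHR array reached a WKY or SD array, and the difference was -1.62 ± 0.17 (SE, adjusted p = 4.53e-07), with WKY at 0.09 ± 0.17 (adjusted p = 0.761). The SD-PCB arrays, at 425, 721 and 1283, were also low, and SHR minus SD-PCB was 0.36 (adjusted p = 0.0782). Dusp6, a related phosphatase, was lower in both inbred strains, at -1.08 ± 0.17 (SE, adjusted p = 4.92e-05) in SHR and -1.44 ± 0.17 in WKY, and stood at 0.13 against SD-PCB. The other 2, Egr1 (-0.48 ± 0.16, adjusted p = 0.023) and Homer1 (-0.30 ± 0.09, adjusted p = 0.0183), were small, and Egr1 did not pass without the dorsal striatum, hippocampus or ventral striatum (adjusted p = 0.0573 to 0.0944) nor Homer1 without the hippocampus (adjusted p = 0.0746).

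Among 16 clock genes and PAR bZip factors 3 were higher and 5 lower. Dbp, a clock output, was graded, at 0.97 ± 0.14 (SE, adjusted p = 2.30e-05) in SHR and 0.55 ± 0.14 in WKY, and Nr1d1, the repressor REV-ERB alpha, was set apart at 0.95 ± 0.19 (SE, adjusted p = 6.85e-04), positive in 5 of 6 regions. Of 12 glucocorticoid genes 1 was higher and 2 lower. Sgk1, a kinase induced by corticosterone, had signals of 3768, 4428 and 4736 in SHR, 3375, 5119.9 and 5839 in WKY and 6435, 8196 and 9403 in SD, and was lower in both inbred strains, at -0.88 ± 0.10 (SE, adjusted p = 2.81e-06) in SHR and -0.77 ± 0.10 in WKY. Cdkn1a, the cell cycle inhibitor p21, was set apart at 1.01 ± 0.24 (SE, adjusted p = 0.00276). Of 15 cholesterol genes 2 were higher and 2 lower, and Insig1, which holds back sterol synthesis, was set apart at -0.63 ± 0.09 (SE, adjusted p = 2.48e-05), while Fdps, farnesyl diphosphate synthase, was set apart at 0.56 ± 0.14 (SE, adjusted p = 0.00336). Of 8 thyroid hormone genes 1 was higher and 2 lower, and of 15 heat shock proteins and chaperones 2 were higher and 2 lower. Hspa9, the mitochondrial chaperone mortalin, was set apart at -0.47 ± 0.10 (SE, adjusted p = 0.00117). Of 6 genes of antigen presentation 2 were higher and 2 lower, including RT1-S3, a class I gene at -1.38 ± 0.20 (SE, adjusted p = 3.35e-05) in SHR and -0.67 ± 0.20 in WKY. Strains carry different class I genes, and probe sets of this family can share sequence.

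The largest difference among the shared genes was a fall of Pop5, a protein subunit of ribonuclease P. It had signals of 204, 261 and 289.8 in SHR, 151, 279.7 and 353 in WKY and 1438, 2135 and 2546 in SD, so that both inbred strains lay below every SD array. The differences were -3.04 ± 0.12 (SE, adjusted p = 5.53e-14) for SHR and -2.95 ± 0.12 for WKY. The other tested probe set of Pop5 was at 0.10 for SHR minus SD. Whether strain sequence differences under the probes take part in this or in other values of a single probe set was not tested. Klf12, a transcriptional repressor, had signals of 32.6, 48.8 and 183 in SHR, 38.7, 90.5 and 186 in WKY and 267, 448 and 497 in SD, at -2.78 ± 0.34 (SE, adjusted p = 4.03e-06) and -2.22 ± 0.34. Clca1 (-2.51), the helicase of Werner syndrome Wrn (-2.25), the actin bundler Pls1 (-2.10) and C1ql3, a synaptic C1q-like protein (-1.99), were lower in SHR too, with WKY at -2.10, -1.35, -2.11 and -1.25.

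Prrt2, a presynaptic membrane protein in which human variants cause paroxysmal movement disorders, rose evenly in both inbred strains. It had signals of 1565, 2376 and 4556 in SHR, 1694, 1870.4 and 2886 in WKY and 406, 616 and 1206 in SD. SHR and WKY both lay above every SD array, at 2.00 ± 0.18 (SE, adjusted p = 6.11e-08) and 1.65 ± 0.18, and the SHR difference ran from 1.53 to 2.42 over regions. Dkc1, the pseudouridine synthase dyskerin, had signals of 153, 219 and 313 in SHR, 132, 171 and 211 in WKY and 15, 59.2 and 111 in SD, at 2.23 ± 0.34 (SE, adjusted p = 4.66e-05) and 1.85 ± 0.34. Hps4 (2.52), the lysosomal transporter Slc66a1 (2.38), Pmm2, of protein glycosylation (2.02), and Pdlim7 (2.01) were the other large rises, with lowest SD signals of 10.7, 9.55, 15.9 and 7.11. Pdlim7 was 1.20 without the vermis (adjusted p = 2.82e-06).

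Opposite genes had SHR above and WKY below SD, or the reverse, in 26 genes (0.289%) each. Pxmp4, a peroxisomal membrane protein, had signals of 377, 487 and 670.4 in SHR, 32.4, 68 and 139 in WKY and 241, 291 and 316 in SD, with no overlap among the 3 groups. Its differences were 0.79 ± 0.26 (SE, adjusted p = 0.0206) for SHR and -2.05 ± 0.26 for WKY, and the SHR value was 0.71 without the hippocampus (adjusted p = 0.0808) and 0.71 without the prefrontal cortex (adjusted p = 0.0778). Shank3, a scaffold of excitatory synapses, had signals of 592, 2251 and 3564 in SHR, 209.7, 661 and 1215 in WKY and 409.6, 1339.8 and 2202 in SD, at 0.78 ± 0.19 (SE, adjusted p = 0.00331) and -1.0 ± 0.19. Hbb had signals of 4639, 5869 and 10847 in SHR, 1214, 1791 and 3343 in WKY and 2961, 3399 and 5652 in SD, at 0.79 ± 0.12 (SE, adjusted p = 5.75e-05) and -0.93 ± 0.12, and it was lower in SHR than in SD-PCB by 0.28 (adjusted p = 0.0654), short of the threshold. Slc13a3, the sodium-dependent dicarboxylate transporter, was at 0.93 ± 0.26 (SE, adjusted p = 0.00867) and -1.08 ± 0.26, and at -0.01 against SD-PCB.

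**Figure D5:**
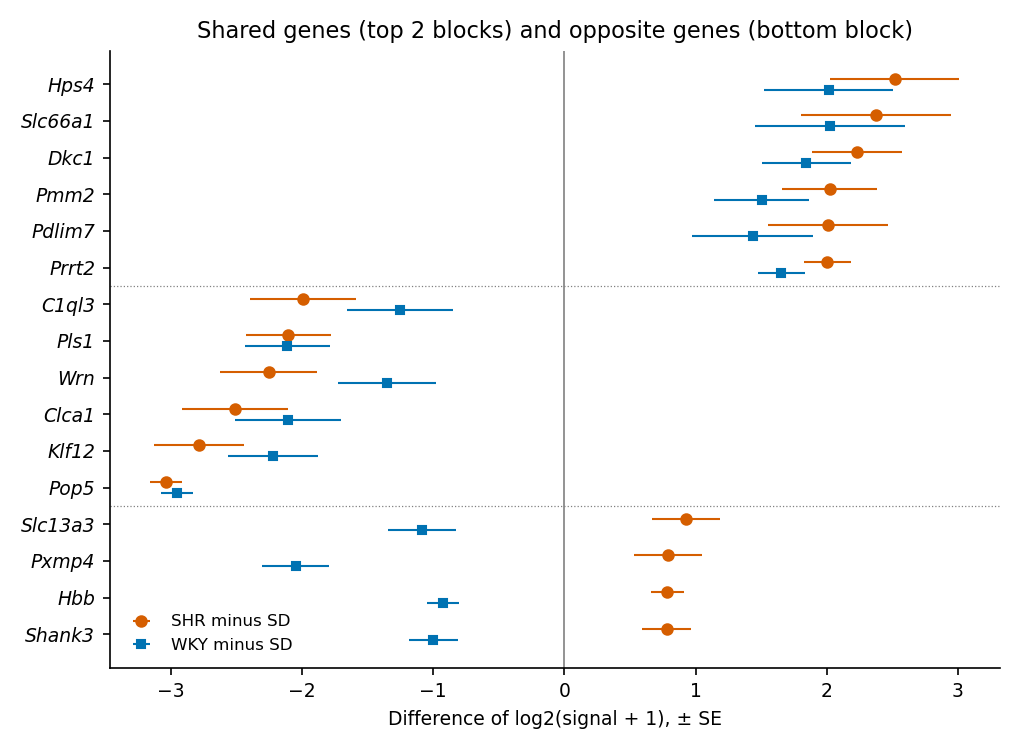
Difference of log2(signal + 1) with its standard error for SHR minus SD (orange circles) and WKY minus SD (blue squares), which share the SD arrays, for the 12 largest shared genes and the 4 opposite genes. Pop5 lies near -3 in both, and Pxmp4 is at 0.79 in SHR and -2.05 in WKY.

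Regions differed in the spread of the SHR minus SD difference. The share of tested probe sets with an absolute log2 difference of 1 or more was 7.53% in the substantia nigra/VTA, 9.62% in the prefrontal cortex, 13.7% in the ventral striatum, 14.0% in the dorsal striatum, 14.9% in the hippocampus and 16.4% in the vermis. With 1 array per strain and region, array error and region cannot be told apart in these shares. The median difference of set-apart probe sets that were higher ran from 0.48 in the substantia nigra/VTA to 0.75 in the hippocampus, and that of those that were lower from -0.52 in the prefrontal cortex to -0.75 in the hippocampus.

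The contrast of the 2 striatal regions with the other 4 asked whether strain differences were particular to the striatum, where dopamine acts. It found 1 gene past an adjusted p of 0.05 (0.0111% of genes), and 335 genes (3.72%) at an unadjusted p under 0.05, by limma. That gene was Stap2, a signalling adaptor. Its SHR signals were 214 and 388 in the dorsal and ventral striatum, against 17.3 and 12.7 in those of SD. In the other regions SHR had 107, 142, 256 and 67.6, against 107, 139, 213 and 171 in SD. The striatal difference was larger by 4.45 ± 0.57 (SE, adjusted p = 0.00319), with the 2 lowest signals those of the SD striatum, and without the ventral striatum it was 3.82 (adjusted p = 0.0604). The next in order, Dcakd, a coenzyme A synthesis enzyme, was at 3.09 ± 0.51 (SE, adjusted p = 0.0535). Its dorsal and ventral striatal signals were 23.1 and 32.1 in SD, against 203 and 167 in WKY and 153 and 146 in SD-PCB.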

How the data were processed

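The 24 arrays were Affymetrix Rat RAE 230 2.0 chips, hybridised with biotin-labelled material made from total RNA (Qiagen RNeasy, Ovation amplification), per the labels' protocols. The deposited values are probe-set intensity values on a linear scale, computed by the authors with MAS5, per the submitters' processing notes. A trimmed mean of linear signals is set mostly by bright probe sets, so shifts of bright against dim probe sets depend on this scaling.

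From these, log2(signal + 1) was computed. Of 31099 probe sets 57 controls were set aside, and the 15521 brightest by mean (down to a signal of 116, the median) were tested. limma 3.58.1 in R 4.3.3 fitted strain group and region over all 24 arrays, with eBayes and a trend on mean signal. All tests were two-sided, with Benjamini-Hochberg adjustment over all tested probe sets and a threshold of 0.05. The region, which is the replicate number, pairs the arrays in this fit. Errors are standard errors of the fit unless named otherwise.

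Symbols came from the platform annotation: 20826 probe sets had 1 symbol, 436 several and 9780 none. The brightest probe set stood for each gene. Named genes were the 10 largest rises and 10 largest falls set apart with 1 sign in all 6 regions, the 6 largest of each among shared genes, 4 opposite genes and up to 4 called members per list. Other list members in the text were picked with their values in view. The members and the 44 lists were chosen with earlier results of these data known. The number of arrays limits the precision. On data simulated for SHR minus SD with 15521 probe sets, the fit called 40 of 50 changed 2-fold and 15 of 50 changed 1.5-fold in SHR alone, and 5 of 15321 unchanged. The simulation drew independent noise for each probe set, changed few probe sets and gave the groups no difference in array shape or scaling. The data differ in these points, so the simulated count of false calls need not hold for them. Scaling, pseudocount, filters, trend, array weights, thresholds, arrays in the fit and each region left out were varied.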

Additional observations from a re-analysis of the deposited data

Results flagged for a closer look

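The 6 regional SHR minus SD differences of each of 168 named genes were examined for a region whose gap to the nearest other region, divided by the range, was above Dixon's critical value for 6 values. Such a region was found for 12 genes. Chance flags about 1 in 20 groups.

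The vermis stood apart for Pdlim7 (a log2 difference of 6.08), Cbs (4.82), Adcy5 (4.37), Dot1l (2.54) and Dusp6 (-1.78). The dorsal striatum stood apart for Tmem200a (-5.03) and Ntrk2 (1.32), and the hippocampus for Atxn7 (-3.77) and Psmc3 (1.21). The substantia nigra/VTA stood apart for Wrn (-4.89) and Gabrd (2.73), and the ventral striatum for Cntn4 (-4.79). In each case the direction was that of the mean over regions. The SD vermis array had 128 tested probe sets under a signal of 20, against 70 on the SHR vermis array, and the part of dim signals in these regional values was not tested.

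The strain difference of Stap2 differed between the striatum and the other regions by 4.45 on the log2 scale (adjusted p = 0.00319), by limma's interaction term. In the striatum only the SD arrays were low, while WKY and SD-PCB lay nearer to SHR.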

How the results depend on the processing

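Counts below are of probe sets. The SHR minus SD calls, 5187 in the main setting, numbered 3216 in the upper part of the tested probe sets by mean signal (7761), 3312 with 1 probe set per gene, 2087 with no replicate block (regions not paired) and 3776 to 4942 with 1 region left out. The set-apart count of 2334 was 1005 with array medians centred, 1548 in that upper part, 729 with no replicate block, 1541 with an absolute log2 difference of at least 0.5 as well, 3777 without the SHR minus WKY test and 1464 to 2407 with 1 region left out, lowest without the ventral striatum. The shared count of 1118 was 2516 with medians centred, 743 in that upper part, 635 with 1 probe set per gene, 283 with no replicate block, 734 with the 0.5 limit and 740 to 1226 with 1 region left out, lowest without the hippocampus. The opposite count of 90 was 417 with medians centred, 274 with array weights, 53 with 1 probe set per gene, 13 with no replicate block, 201 at an adjusted p under 0.1, 40 with the 0.5 limit and 37 to 174 with 1 region left out, lowest without the dorsal or ventral striatum and highest without the vermis. The striatal contrast, with 1 call, had 2 after quantile normalization, median centring or cyclic loess and with 1 probe set per gene, 0 in that upper part, where Stap2 and Dcakd were not tested, 4 with no trend, 3 with array weights or at an adjusted p under 0.1, and 1 to 18 with 1 region left out (16 without the dorsal and 18 without the ventral striatum). Of the set-apart calls 54.4% were higher in SHR, against 26.2% with medians centred, 47.2% after quantile normalization and 49.1% after cyclic loess. The next brightest probe set had the other sign for Atxn7 (0.48), Pet100 (0.59), Pop5 (0.10), Glul (0.46), Mobp (0.56), Gabrd (-0.11), Ntrk2 (-0.39), Camk2b (0.48), Dnmt3a (0.86), Arid1b (0.011), Wnk1 (0.24), Cyp51 (0.065), Ncor1 (0.29) and Celf1 (0.078). With SD-PCB in place of SD the sign turned for Slc13a3 (-0.0088), Hbb (-0.28), Gja1 (0.20), Cldn11 (0.044), Mobp (0.032), Mbp (0.14), Bcas1 (0.15), Slco1a4 (-0.28), Sv2b (0.12), Ep300 (0.20), Mbd1 (-0.072), Rpl5 (0.019), Hsph1 (0.066), Dusp1 (0.36) and Dusp6 (0.13), and after quantile normalization for Gja1 (0.045) and Mbp (0.10). Of the named results, 90 of 163 kept direction and side of the threshold with no replicate block and 73 lost the call, while all 168 kept both with a pseudocount of 16. Without 1 region 144 to 161 of 168 kept both. The cause of these changes was not tested, apart from fewer probe sets or arrays entering a fit. Dim signals limit the regional values, since 128 tested probe sets were under a signal of 20 on the SD vermis array.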

Other observations

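Where a gene had several probe sets, they did not always move together. Of 297 genes with 2 or more probe sets past the threshold for SHR minus SD, 53 had calls of both signs. Of 327 set-apart genes with another tested probe set, 116 had another one called in the same direction and 13 in the opposite direction. By chromosome, the set-apart share of tested genes ran from 10.1% on chromosome 17 (27 of 267) to 22.7% on chromosome 9 (80 of 353).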
